A study of Drosophila melanogaster with 19 samples.

Results

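The vacuolar ATPase subunit genes of Drosophila melanogaster were examined in lists of methylated DNA peaks from S2-DRSC cells. The members were all protein-coding genes of the release 6 annotation whose symbol starts with Vha, 33 of 13946 protein-coding genes on 7 chromosomes. They were divided by general knowledge of fly biology, and not by their peaks, into 14 main copies, the broadly used gene of each subunit, and 19 further copies of the same subunits. The other 13913 protein-coding genes served as the background.

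The vacuolar ATPase is a rotary proton pump that acidifies lysosomes, endosomes and secretory vesicles. Its cytosolic V1 sector, built from subunits A to H, hydrolyses ATP, and its membrane V0 sector, built from subunits a, c, c'', d and e, carries the protons. Many subunits of the fly pump are encoded by a broadly used gene and by extra gene copies, several of which are known mainly from a few tissues such as the testis. S2 cells are a phagocytic, hemocyte-like line derived from embryos.

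The assay, AdMTase-seq, used an m6A methyltransferase to methylate adenines in the DNA it could reach in isolated nuclei of these cells, which the labels spell S2-DSRC. The incubation lasted 20 min at 37 °C, and short methylated fragments were pulled down with an antibody and sequenced. Hia5 treatment gave 8 libraries at doses of 0.6, 2, 6, 20, 60 and 200 U, with 2 libraries at 2 U and 2 at 6 U. EcoGII and Btr192IV were each used at 0.6, 2 and 6 U, with 1 library per dose. EcoGI had 1 library at 0.6 U and 1 at 2 U, and Hin1523 had 1 at 2 U, which made 17 treated libraries in all. A pull-down from untreated cells (1 library) and a DNA input (1 library) were the controls. The labels give the same line and no genetic change for all 19 libraries, and groups of 1 library carry no replicate error.

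The authors deposited 1 peak list per library. Treated lists held 772 to 13395 peaks (median 3692), against 1974 peaks in the list of untreated cells and 32 in that of the DNA input. Relative depth, read from the step size of the deposited heights, was 7.28 to 25.5 in treated libraries, against 11.3 in untreated cells and 0.673 in the DNA input. Depth and list length differed between libraries together with the counts below; counts with lists cut to a common length are given beside them, and the part of depth was not tested. Of 12 hemocyte markers, 6 had a treated peak at a gene end at least once, against 43.3% of protein-coding genes outside the Vha family, so that the list does not check the labelled line. Col4a1 had one in 15 libraries and also in the untreated library, zfh1 in 13 and vkg in 9, while Hml, NimC1, eater, Sr-CI, ush and He had none. Among markers of other cell types, 1 of 4 neuron markers (elav, 11 libraries), 2 of 4 muscle markers (Mef2, 11, and bt, 3), 1 of 4 germline markers (nanos, 15) and repo of glia (8) had such a peak, and nSyb, brp, Syt1, Mhc, up, vas, bam, osk and Orco had none. A peak in these lists marks DNA the enzyme reached and is no measure of transcript level.

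A gene was called marked in a library where a peak covered at least 1 bp within 500 bp of either of its ends. Because the annotation used here gives no strand, the ends are called left and right in the order of the coordinates. The share of Vha genes marked was higher than that of the other protein-coding genes in 12 of 17 treated libraries and lower in 5. At Hia5 0.6 U, 14 of 33 Vha genes (42.4%) were marked, against 29.3% of the other protein-coding genes. Cut to its 2132 highest peaks, this list marked 5 Vha genes, against 6.36% of the others. At Hia5 2 U, 13 (39.4%) and 8 (24.2%) Vha genes were marked in the 2 replicates, against 17.5% and 17.7% of the others.

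Few Vha genes were marked above 2 U of Hia5. The 2 replicates at 6 U marked 3 (9.09%) and 0 Vha genes, against 5.27% and 3.86% of the others. A single Vha gene (3.03%) was marked at 20 U and none at 60 or 200 U, against 3.4%, 0.776% and 3.9% of the others. The 5 libraries in which the Vha share lay below the background were these 3, the second 6 U replicate and Btr192IV at 6 U.

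In its full lists, EcoGII marked 11 (33.3%), 13 (39.4%) and 12 (36.4%) Vha genes at 0.6, 2 and 6 U, against 23.1%, 26.9% and 24.4% of the others. Cut to the 2132 highest peaks of each list, it marked 6, 5 and 1 Vha genes at these doses, against 6.25%, 6.25% and 5.15% of the others; the full lists held 6772, 7969 and 13395 peaks. Btr192IV marked 7 (21.2%), 4 (12.1%) and 0 at the same doses, against 9.37%, 6.99% and 1.9% of the others. EcoGI marked 5 (15.2%) at 0.6 U and 3 (9.09%) at 2 U, against 7.89% and 7.01%, and Hin1523 marked 10 (30.3%) at 2 U, against 17.2%. The untreated library marked 0 of 33 Vha genes, against 1.31% of the others, and the DNA input marked 0 of 33, against 0% of the others.

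**Figure D1:**
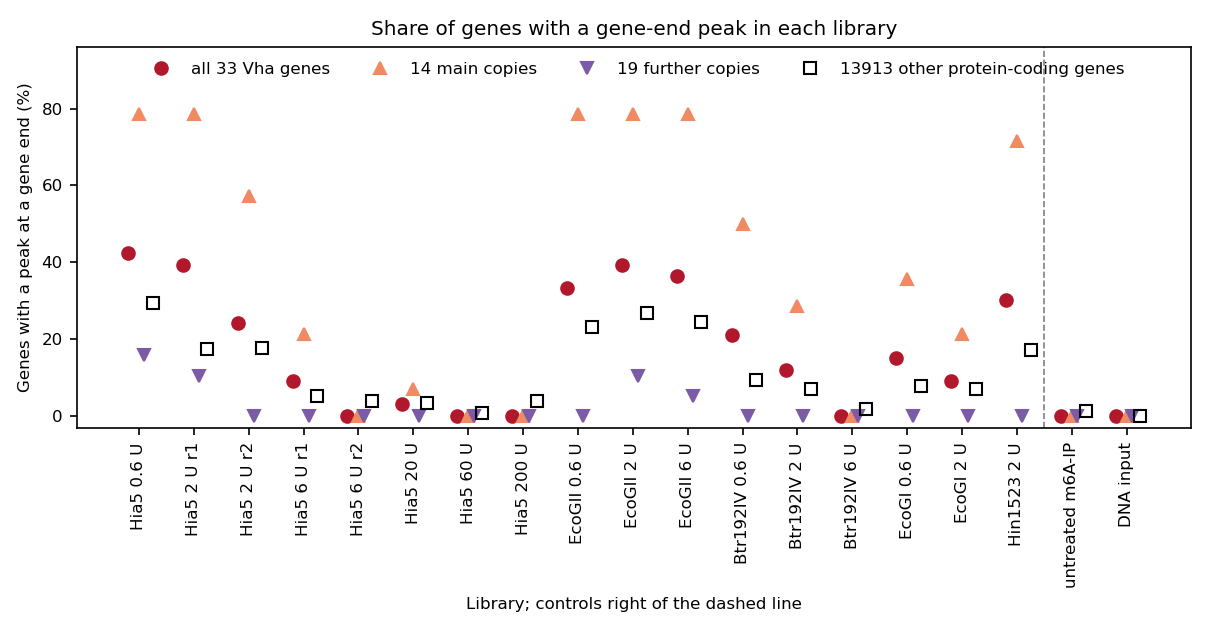
Percentage of genes with a peak within 500 bp of a gene end (vertical axis) in each of the 19 libraries (horizontal axis), for all 33 Vha genes, their 14 main copies, their 19 further copies and the 13913 other protein-coding genes. The main copies lie above the other protein-coding genes in 13 of 17 treated libraries, and no Vha gene was marked in either control.

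Most of the marked Vha genes were main copies. Over the 17 treated libraries, 11 of 14 main copies and 5 of 19 further copies were marked at least once, against 43.3% of the other protein-coding genes, and the 33 Vha genes together reached 16. In at least 9 libraries, 6 of 14 main copies and 0 of 19 further copies were marked, against 7.73% of the others. The median main copy was marked in 8 libraries, the median further copy in 0 and the median other gene in 0. No test was made of these counts, since the members were chosen with results of these data known. The count of 6 rests partly on single libraries: 3 genes were marked in exactly 9, and without either Hia5 2 U replicate the count was 3. With every treated list cut to its 772 highest peaks, 2 main copies and 0 further copies were marked at least once, against 4.46% of the others. The mean per library was 0.412 of 33 Vha genes, a share close to the 1.26% of the others. The Vha share lay above the background in 7 of 17 libraries, but no library marked more than 1 Vha gene. A single marked gene (3.03%) was enough to exceed the background in each of these.

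At Hia5 0.6 U 11 of 14 main copies (78.6%) were marked, against 3 of 19 further copies (15.8%) and 29.3% of the others. EcoGII marked 11 of 14 main copies at each of its 3 doses, and they were the same 11 genes. It marked 0, 2 and 1 of 19 further copies at 0.6, 2 and 6 U, and 23.1%, 26.9% and 24.4% of the others. Of the 11 main copies, 8 were also marked in Hia5 0.6 U and in both Hia5 2 U replicates. Further copies were marked in 4 of 17 treated libraries. The share of the other protein-coding genes ran from 0.776% to 29.3% over the 17. The main copies were longer genes, with a median length of 2907 bp against 1371 bp for the further copies and 2161 bp for the others; the part of length in these counts was not tested.

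**Figure D2:**
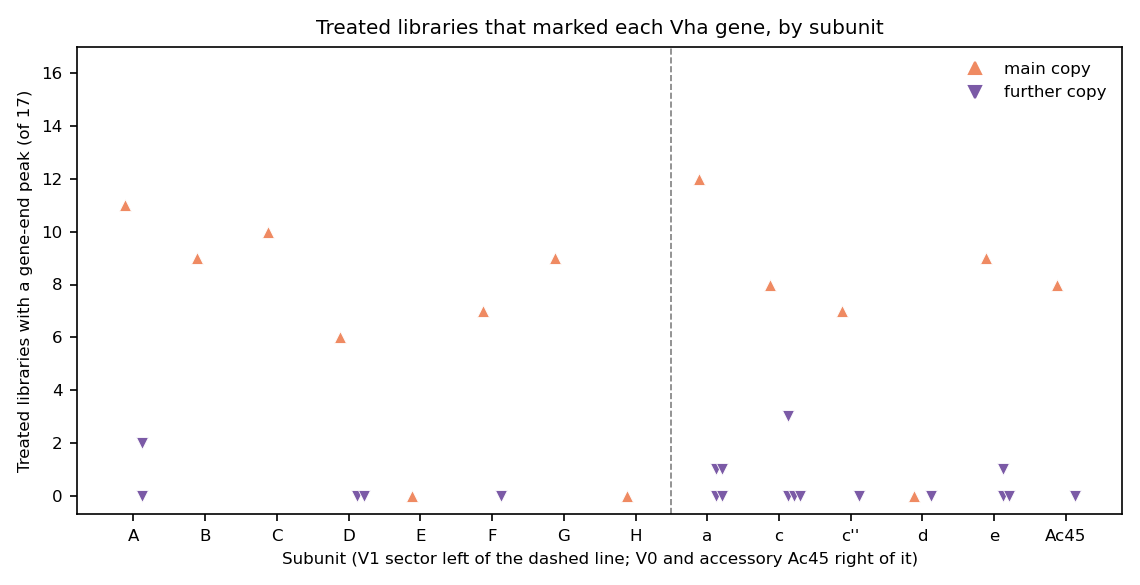
Number of the 17 treated libraries that marked each Vha gene (vertical axis), grouped by subunit (horizontal axis), with main copies as upward and further copies as downward triangles. Of the main copies, 11 lie between 6 and 12 libraries and 3 at 0, while the further copies lie between 0 and 3.

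Both sectors of the pump were represented. In V1, 6 of 8 main copies were marked at least once, with a median of 8 libraries, and in V0 it was 4 of 5, also with a median of 8. The accessory gene VhaAC45 was marked in 8 libraries. Values below are bases under peaks, the number of bases within 500 bp of the gene's ends that at least 1 peak covered. Peak heights are given as percentiles of all peaks in the same list, with 100 the highest.

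Vha68-2 encodes subunit A, which holds the catalytic ATP site of V1, and was marked in 11 libraries. With Hia5 it had 482 bases under peaks at 0.6 U, 228 and 320 at 2 U, 159 and 0 for the 6 U replicates, and 0 at 20, 60 and 200 U. With the other enzymes it had 316, 662 and 305 in EcoGII at 0.6, 2 and 6 U, 161, 0 and 0 in Btr192IV at the same doses, 179 and 180 in EcoGI at 0.6 and 2 U, and 300 in Hin1523. Together with Vha100-2 and VhaM9.7-b, it was marked in both EcoGI libraries, and no other Vha gene was. The site lay across the left end of the gene (chr2L:12974061-12974505 of build dm6, as for all positions here), and its height had a median percentile of 70.0 (36.3 to 83.6). No end of another gene lies within 1000 bp of this end. At Hia5 0.6 U and EcoGII 2 U, lower peaks further inside the gene (chr2L:12974561-12975176, percentiles 27.2 to 32.9) are part of the bases counted. Of the further A copies, Vha68-1 had 57 bases at Hia5 0.6 U and 55 at EcoGII 2 U, and Vha68-3, whose end lies 179 bp from the right end of Vha68-2, had none.

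Vha55 encodes subunit B, which alternates with A in the catalytic head and has no further copy. It was marked in 9 libraries, with 340 bases at Hia5 0.6 U, 130 and 255 at 2 U and 0 in all 5 Hia5 libraries at 6 U and above. EcoGII gave 400, 420 and 192 bases at 0.6, 2 and 6 U, Btr192IV 195, 71 and 0, Hin1523 280, and EcoGI 0 in both libraries. The site covered the right end (chr3R:12627681-12628100, median percentile 67.6) and also reached an end of Snx3, a neighbour whose end lies 202 bp away. Within 1000 bp of an end, a peak was present in 12 libraries.

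Vha44 encodes subunit C, which joins the stalk to V0 and, in yeast, is released when the pump disassembles. It was marked in 10 libraries and was the only Vha gene marked at Hia5 20 U. It had 330 bases at Hia5 0.6 U, 129 and 235 at 2 U, 0 in both 6 U replicates, 57 at 20 U and 0 at 60 and 200 U. EcoGII gave 75, 191 and 403 bases, Btr192IV 141, 35 and 0, EcoGI 27 and 0, and Hin1523 0. Its right end lies inside Hmgs, the gene of HMG-CoA synthase. A site over that end (chr2R:16336587-16336930) was present in 7 libraries, and a second began 367 bp outside it in 8 libraries. Inside the gene, far from both ends, a site at chr2R:16330141-16330400 was present in 11 libraries and another at chr2R:16328762-16329283 in 8. The second of these also held a peak of the untreated library (chr2R:16329155-16329280).

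Vha13 encodes subunit G of the peripheral stalk and was marked in 9 libraries. It had 503 bases at Hia5 0.6 U, 70 and 148 at 2 U and none at higher Hia5 doses. EcoGII gave 241, 285 and 155 bases, Btr192IV 69, 0 and 0, EcoGI 60 and 0, and Hin1523 133. The site covered the right end (chr3R:19644289-19644580). At Hia5 0.6 U, and in no other treated library, peaks also lay near the left end, from which an end of subdued is 296 bp away.

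Vha14-1 (subunit F) and Vha36-1 (subunit D), both parts of the central rotor, were marked in 7 and 6 libraries. Vha14-1 had 255 bases at Hia5 0.6 U, 127 and 198 at 2 U, 205, 256 and 112 in EcoGII at 0.6, 2 and 6 U, and 173 in Hin1523. Vha36-1 had 465 bases at Hia5 0.6 U, 93 and 0 at 2 U, 183, 272 and 72 in EcoGII, and 170 in Hin1523. Neither was marked by Btr192IV or EcoGI, or by Hia5 above 2 U. The main Vha36-1 site, present in all 6 of its libraries, covered its left end together with an end of CG8187, 72 bp away. At Hia5 0.6 U and EcoGII 2 U a second, lower peak lay outside the right end (chr2R:15542547-15542771, median percentile 25.3) and is part of the bases counted there. Their further copies Vha14-2, Vha36-2 and Vha36-3 had no marked end.

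In V0, Vha100-2 encodes subunit a, which forms the proton half-channels, and it was marked in more treated libraries than any other Vha gene, 12 of 17. It had 300 bases at Hia5 0.6 U, 296 and 263 at 2 U, 72 and 0 for the 6 U replicates, and 0 at 20, 60 and 200 U. It had 278, 354 and 277 bases in EcoGII at 0.6, 2 and 6 U, 207, 72 and 0 in Btr192IV, 205 and 42 in EcoGI, and 216 in Hin1523. The site covered the right end (chr3R:18399041-18399380) with a median percentile of 81.6 (51.5 to 94.3). That end lies inside Vti1b, a SNARE gene. A second site inside Vha100-2 (chr3R:18397284-18397640), 289 bp from an end of Vti1b and 1529 bp from the end of Vha100-2, was present in 15 of 17 treated libraries, all but Hia5 60 and 200 U, with a median percentile of 87.7. Of the further copies, Vha100-4, whose end lies 518 bp from the left end of Vha100-2, and Vha100-3 were unmarked.

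Vha16-1 encodes the proteolipid c, which makes up most of the rotating ring. It was marked in 8 libraries but was the exception in position. Its main site lay 438 bp or more inside the right end (chr2R:6632365-6632652), was present in 11 libraries and had a median percentile of 85.9. Because only the edge of that site reached the window, the bases counted were few: 51 at Hia5 0.6 U, 19 and 5 at 2 U, 17 and 0 for the 6 U replicates, 54 and 63 in EcoGII at 0.6 and 2 U, and 34 in Hin1523. EcoGII at 6 U had 201 bases, from a separate peak near the left end. With windows of 200 bp Vha16-1 was marked in 0 libraries.

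VhaM9.7-b encodes the small subunit e and was marked in 9 libraries. It had 140 bases at Hia5 0.6 U, 45 and 229 at 2 U, 241, 320 and 99 in EcoGII, 154 and 55 in EcoGI, and 56 in Hin1523. It was unmarked in all 3 Btr192IV libraries, unlike the genes of subunits A, B, C, G and a. The site covered the left end (chr3L:21539721-21540040, median percentile 59.2), with an end of COX8, a respiratory chain gene, 415 bp away.

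VhaPPA1-1 encodes the proteolipid c'' and was marked in 7 libraries. It had 231 bases at Hia5 0.6 U, 273 and 0 at 2 U, 242, 277 and 202 in EcoGII, 52, 0 and 0 in Btr192IV and 92 in Hin1523. VhaAC45, the accessory subunit that helps to assemble and sort the pump, had 260 bases at Hia5 0.6 U and 174 and 0 at 2 U. It had 269, 399 and 223 bases in EcoGII, 73, 190 and 0 in Btr192IV and 92 in Hin1523. Both genes were marked in the first Hia5 2 U replicate and not in the second, as was Vha36-1, and these 3 account for the difference between 11 and 8 main copies in the 2 replicates.

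**Figure D3:**
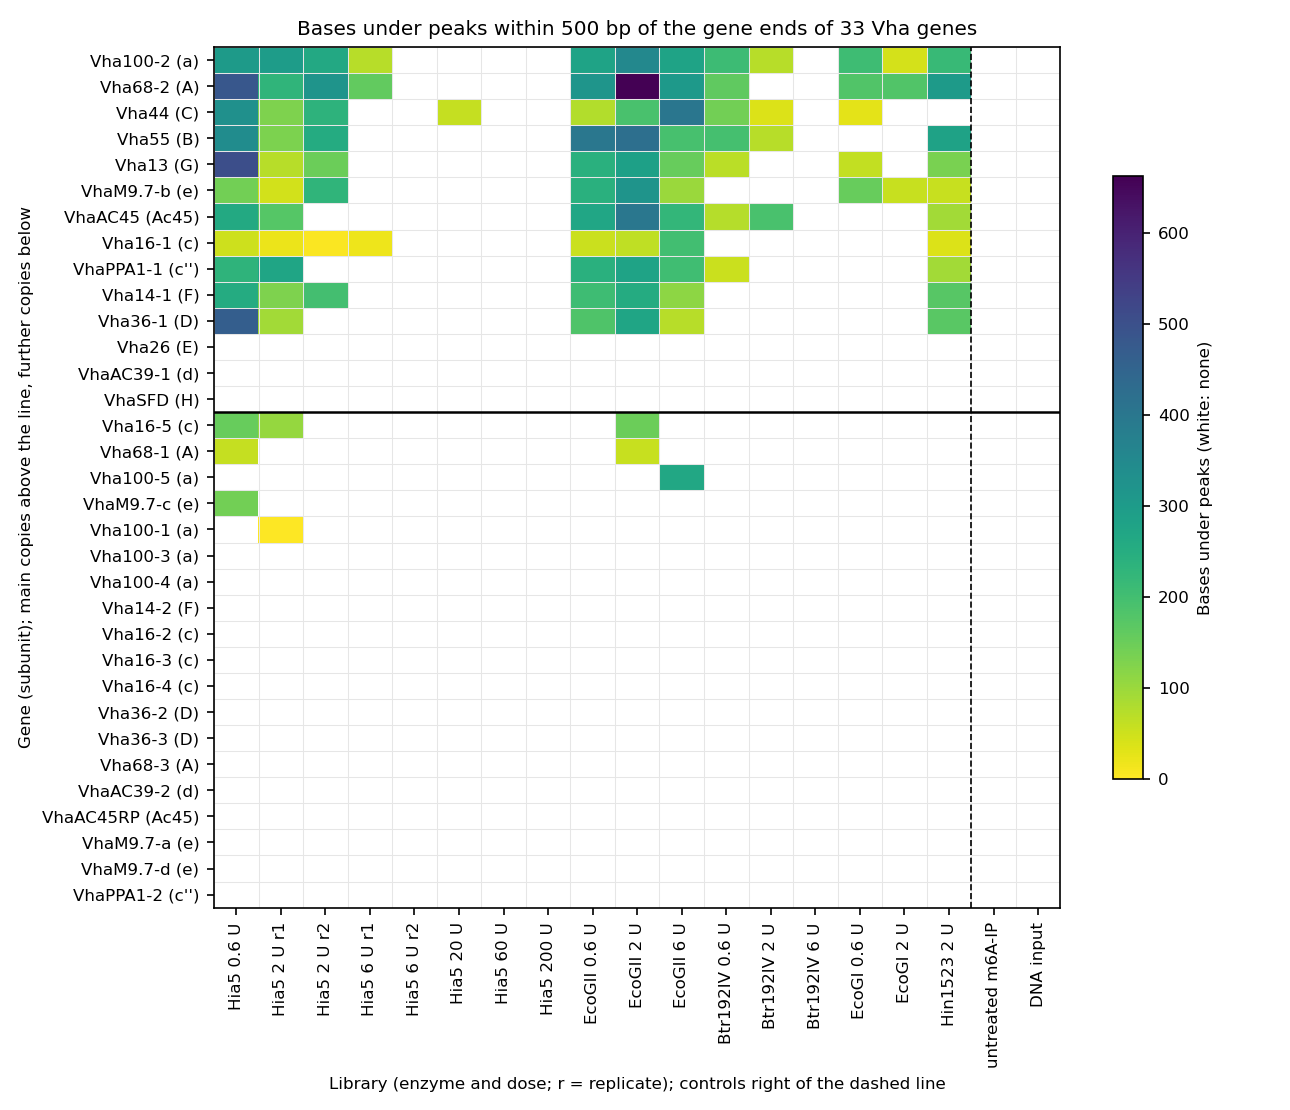
Bases under peaks within 500 bp of the gene ends (colour) for each of the 33 Vha genes (rows, with the subunit in parentheses) in each of the 19 libraries (columns). Of the 14 main copies above the line, 8 to 11 are marked in each column of Hia5 at 0.6 and 2 U, EcoGII and Hin1523, with Vha26, VhaAC39-1 and VhaSFD at 0 throughout, while at most 3 further copies are marked in any column and both control columns are empty.

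In each marked main copy, 1 end was marked in more libraries than the other. The site present in the most libraries was not always at that end. In Vha100-2 it lay 1529 bp inside that end (15 libraries). In Vha44 it lay nearer to the other, left end, at 5328 bp from it (11 libraries). In 10 of the 11 marked main copies, a treated peak covered the end base itself, Vha16-1 being the exception. Among the 5 marked further copies this held for 1 (20%). Of other protein-coding genes marked at least once, 49.8% had an end covered in this way, and of those marked in at least 6 libraries, 65.7%. In the 9 treated libraries with at least 5 Vha peaks at gene ends, the median distance from peak centre to gene end was 31.0 to 81.5 bp for Vha genes, against 94.5 to 235 bp for other protein-coding genes, and it was shorter for the Vha genes in 9 of 9. The median height percentile of these Vha peaks was 41.7 to 70.1, against 47.2 to 63.0 for peaks at other genes, and was above it in 8 of 9. No test was made of these medians, since the peaks of a gene recur between libraries.

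**Figure D4:**
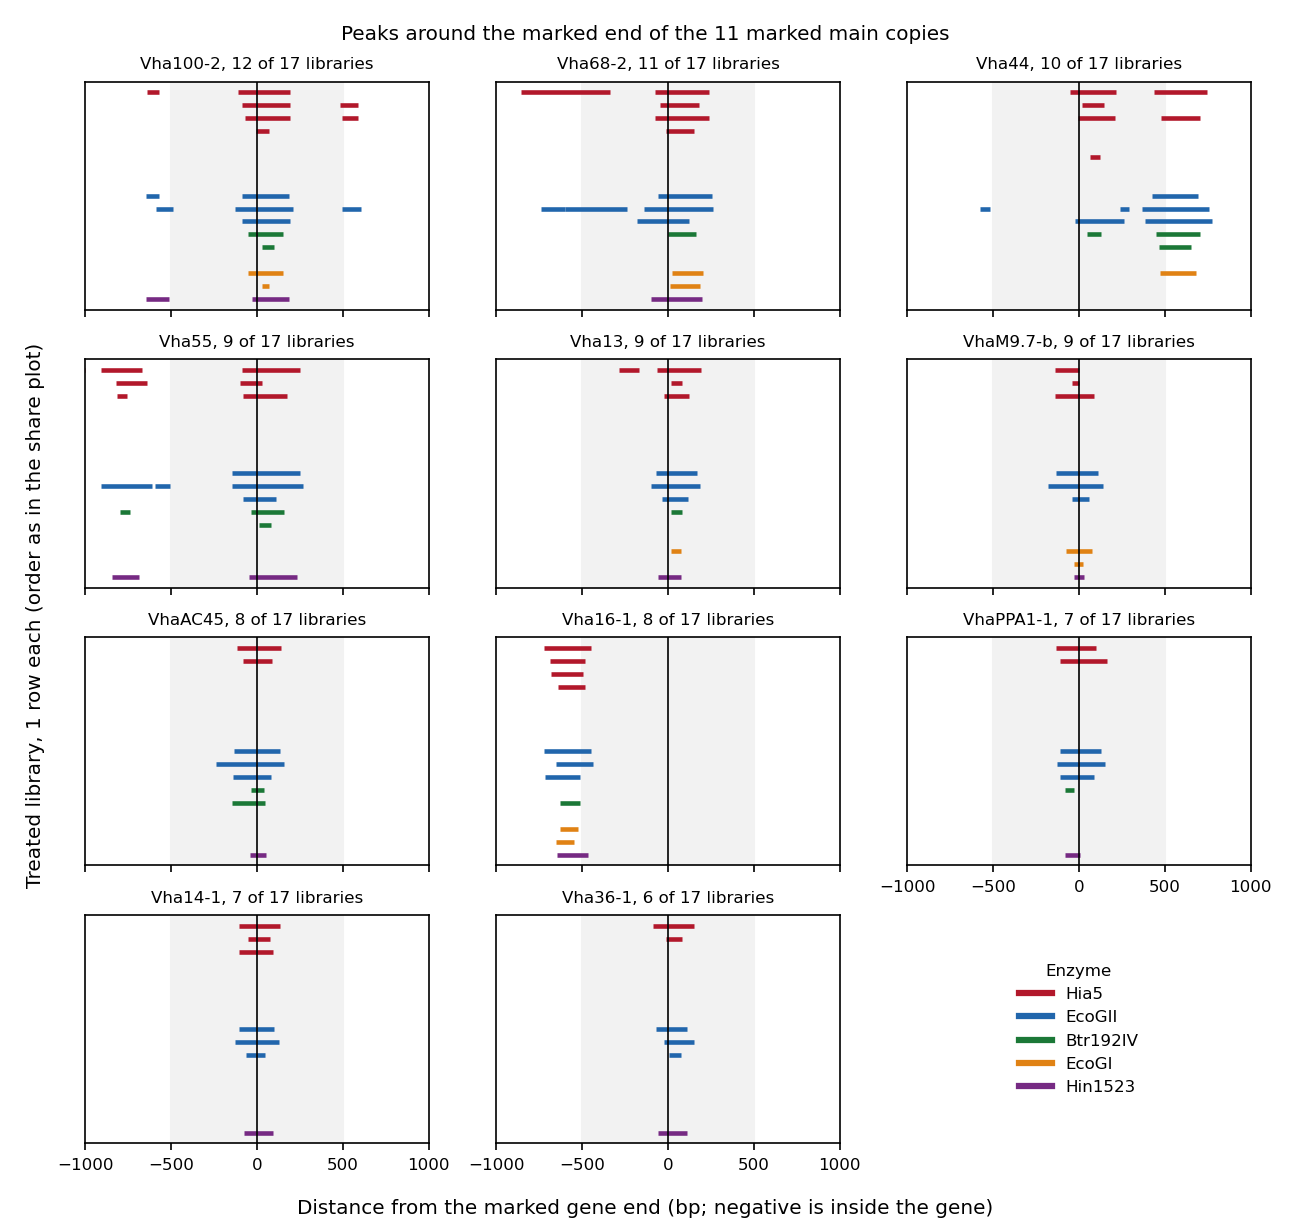
Extent of each peak (bars, coloured by enzyme) in each treated library (rows) as distance in bp from the recurrently marked end of the 11 marked main copies, with negative values inside the gene and the 500 bp window shaded. Peaks lie across the end itself in 10 of the 11 genes, and 438 bp or more inside it at Vha16-1.

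Short distances between fly genes limit what a marked end can be assigned to. Of the 16 marked Vha genes, 10 had a marked end within 500 bp of an end of another gene, among them Vha55, Vha36-1, VhaAC45 and VhaM9.7-b. Without these 10, 6 Vha genes remained marked at least once, 5 of them main copies, and 3 were marked in at least 9 libraries. No share of the other protein-coding genes was computed for these counts, so they cannot be read against a background. Vha13 was among the 10 only through its left end, marked at Hia5 0.6 U alone. Its right end, marked in 9 libraries, lies 640 bp from the nearest end of another gene, Nup58. Vha100-2 and Vha44, which remained, end inside another gene, while the ends of Vha68-2 and VhaPPA1-1 that were marked have no other gene end within 1000 bp.

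The main copies Vha26 (subunit E, the peripheral stalk), VhaSFD (subunit H, a regulatory subunit) and VhaAC39-1 (subunit d, which couples the rotor to the ring) were marked in 0 of 17 libraries. Vha26 had a peak just outside the window, 538 bp inside its left end (chr3R:5592301-5592490), in 7 libraries. For VhaSFD the nearest treated peak lay 1436 bp from an end, and for VhaAC39-1 8348 bp. With windows of 1000 bp, Vha26 was therefore marked in 7 libraries and VhaSFD and VhaAC39-1 in 0.

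Among the further copies, 14 of 19 were marked in no library. The nearest treated peak lay between 569 and 13718 bp from an end of these genes, with VhaAC45RP the farthest. Vha36-2 and VhaAC39-2 had a peak within 1000 bp in 8 and 9 libraries, at 569 and 597 bp. All the others of these 14, namely Vha100-3, Vha100-4, Vha14-2, Vha16-2, Vha16-3, Vha16-4, Vha36-3, Vha68-3, VhaAC45RP, VhaM9.7-a, VhaM9.7-d and VhaPPA1-2, had none within 1000 bp in any treated library.

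The 5 further copies that were marked had few peaks. Vha16-5, a proteolipid c copy, had 155 bases at Hia5 0.6 U, 105 in the first 2 U replicate and 149 at EcoGII 2 U, from a site that covered an end of the neighbour CG12299 and began 193 bp outside Vha16-5. The 2 peaks of Vha68-1 began at least 15 bp outside its right end, at a site 296 bp from an end of mTor. VhaM9.7-c had 142 bases at Hia5 0.6 U, across its right end, which lies inside both CG18675 and Teh2. Vha100-5 had 264 bases at EcoGII 6 U alone, from low peaks spread along the gene (percentiles 9.62 to 21.7), in the longest of the lists. Vha100-1 was counted in the first Hia5 2 U replicate for a 2 bp overlap with a peak over an end of Alg13.

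The dose series of Hia5 was tested for each gene across all protein-coding genes marked in at least 3 of its 8 libraries. Pearson's r between bases under peaks and log10 dose was set against all 10080 distinct orders of the doses in an exact two-sided permutation test, with Benjamini-Hochberg adjustment over 1866 genes. The 8 Vha genes that entered were the 8 marked at 0.6 U and in both 2 U replicates, so the filter itself largely fixed a negative direction, and the counts below support no trend of their own. Of the 1866 genes, 123 (6.59%) passed with a lower value at higher dose and 0 with a higher value at an adjusted p under 0.05. No gene passed with the library number range as a block (1866 tested), with the replicate number as a block (850 tested), or without either Hia5 6 U replicate (1825 and 1834 tested). Some genes still passed with windows of 200 or 1000 bp and without the Hia5 200 U library. Of the 8 Vha genes, 0 passed in the full test. Their r ran from -0.84 (Vha68-2) to -0.64 (VhaM9.7-b), with unadjusted exact p of 0.00833 to 0.0863 and adjusted p of 0.0527 to 0.105. At an unadjusted p under 0.05, 7 of the 8 were lower with dose, against 75% of all genes tested.

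With Spearman's rho in place of r, all 8 Vha genes passed, against 81.3% of all genes tested, which went through the same filter. Their rho ran from -0.91 to -0.81, with unadjusted exact permutation p of 0.00357 to 0.025 and adjusted p of 0.0165 to 0.0334. Without the 0.6 and 200 U libraries, the lowest and the highest dose, r was -0.82 to -0.59. The median r of the 8 Vha genes was -0.77, and that of all 1866 genes was also -0.77. Library numbers in the labels fall into 2 ranges. The first holds the first Hia5 replicates at 2 and 6 U, Hia5 at 20, 60 and 200 U, and both controls. The second holds Hia5 0.6 U, the second Hia5 replicates and all libraries of the other enzymes. Hia5 at 0.6 U against 20 U and above, and the other enzymes against the controls, therefore cannot be told apart from range. With range as a block no Vha gene passed under Pearson's r (smallest adjusted exact permutation p = 0.0814). Neither range holds 6 Hia5 libraries, so no value within a range is given. List length also varied with dose, with 8080 peaks at 0.6 U, 772 at 60 U and 4054 at 200 U, and with lists cut to 772 peaks no Vha gene entered the test.

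Hia5 at 6 U and 2 U were the only replicated groups. At 6 U the replicates marked 3 and 0 Vha genes, and at 2 U 13 and 8, so that the groups did not overlap. The other protein-coding genes were marked at 5.27% and 3.86% in the same 6 U libraries and at 17.5% and 17.7% in the 2 U libraries. The mean difference was -9 genes. No test is given, because 2 libraries against 2 cannot give an exact two-sided p below 0.33. With each list cut to 2132 peaks the 6 U replicates marked 3 and 0 Vha genes, and the 2 U replicates 6 and 4, a difference of -3.5. The other protein-coding genes were then also lower at 6 U, with 4.88% and 3.86% against 6.38% and 5.87% at 2 U. Cut to 772 peaks, where no library marked more than 1 Vha gene, the difference was +0.5 genes.

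Other genes around the pump were also described by their counts. Of 6 assembly and regulatory genes, 5 were marked in at least 1 treated library and 1 in at least 9. That 1 was CG7071, the match to the assembly factor Vma12, with 11 libraries. ATP6AP2, the prorenin receptor and a pump accessory protein, was marked in 4 libraries and Mitf, a regulator of lysosomal genes, in 0. The median over the list was 1 library.

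Of 25 lysosomal genes, 15 were marked at least once and 1 in at least 9 libraries, with a median of 2. The cathepsin gene CtsF was marked in 9 libraries, Hexo2 (a hexosaminidase) in 7, and cathD (a cathepsin) and Sap-r (a saposin precursor) in 6 each. Of 16 genes of TORC1 signalling at the lysosome, a nutrient-sensing pathway that works with the pump, 14 were marked at least once and 2 in at least 9, with a median of 2. These 2 were Nprl3, in 11 libraries, and Lamtor4, in 9, while Lamtor1 was marked in 7. The gene mTor was marked in 2 libraries, by the same 2 peaks that marked Vha68-1. Set against 43.3% of other protein-coding genes marked at least once and 7.73% in at least 9, only the counts are given, since these lists were also written with earlier results known.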

How the data were processed

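The 33 members and all gene lists were chosen with earlier results of these data known. Per the labels, S2-DRSC nuclei were treated with 5 methyltransferases. The authors deposited 1 peak list per library, with a signal height per peak in their tag-density units and an FDR of 5% per the file names. Alignment tools and builds listed by the submitters' processing notes are BWA 0.7.12 with SAMtools 1.2, and dm6 beside GRCh38. The peak caller and read totals are not stated in the sources used here. Relative depth is the inverse of the step between deposited heights (tolerance 0.05 of a step). Genes came from a RefSeq table of release 6 without strand or sequence, so 5' ends, promoter motifs and proteins were not analysed here. Peaks were overlapped with windows of 500 bp around gene ends in Python 3.11.15 with NumPy 2.4.6 and pandas 2.3.3. The 8 members marked most often were described in full. The dose test, an exact permutation test, was tested on simulated data. Nothing in the labels says that replicates came from separate cultures, so p-values measure only the spread between libraries, which may be technical. Libraries with the same replicate number did not share their deviations from the group means (correlation 0.01). At Hia5 2 and 6 U the replicate number coincides with the range of library numbers, and this correlation cannot show whether the libraries were prepared as pairs.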

Additional observations from a re-analysis of the deposited data

Results flagged for a closer look

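In the full lists, EcoGII and Hia5 differed in how the Vha count moved between 0.6 and 6 U. In EcoGII the count at 6 U was +1 gene relative to 0.6 U, whereas in Hia5 it was -11 and -14 genes in the 2 replicates at 6 U, and the difference between enzymes was not tested. In Btr192IV it was -7 genes. The share of other protein-coding genes moved the same way, by +1.29 percentage points in EcoGII and by -24.1 and -25.5 in Hia5. The EcoGII 6 U list held 13395 peaks, the Hia5 6 U lists 2856 and 2132. With these lists cut to 2132 peaks, an alternative chosen after seeing the data, the contrast was not present: the count at 6 U relative to 0.6 U was -5 genes in EcoGII, and -2 and -5 in the Hia5 replicates. The share of other protein-coding genes went from 6.25% to 5.15% in EcoGII. In Hia5 it went from 6.36% to 4.88% and 3.86%.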

How the results depend on the processing

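Windows of 200 or 1000 bp, removal of peaks that overlap a control peak, and counting a peak only if most of it lay in the window each kept the counts over libraries within 1.5 times, although windows of 1000 bp moved the count by more in 3 of 17 single libraries. List length changed more counts. With every treated list cut to its 772 highest peaks, the mean number of marked Vha genes per library was 0.412, against 6.12 with full lists, 2 were marked at least once (2 main, 0 further copies), 0 in at least 9 libraries, and the Hia5 6 U minus 2 U difference turned to +0.5, with at most 1 Vha gene in any library. The Vha share was then above the background in 7 of 17 libraries, each with 1 Vha gene. Other protein-coding genes were marked at 1.26% per library on average, and 4.46% of them at least once. Cut to 2132 peaks, an alternative chosen after seeing the data, 15 libraries averaged 3.4 Vha genes, with the share above the background in 11, and the 6 U minus 2 U difference was -3.5. Members with any marked end within 500 bp of another gene's end were also left out, Vha13 only through its left end. The mean was then 2.88, with 6 marked at least once (5 main, 1 further), 3 in at least 9, and a difference of -3. The background share was not computed for this alternative. Leaving out a replicate gave 3 to 6 genes in at least 9 libraries and differences of -11.5 to -6.5. Spearman's rho called 8 Vha genes in the dose test, and the other alternatives with a Vha gene to test called 0. The 123 calls among all genes tested fell to 0 with either block, without either Hia5 6 U replicate, with presence of a peak in place of bases, and with genes marked in at least 1 library. Calls among all genes remained in other alternatives: 59 of 1227 with windows of 200 bp, 232 of 2528 with 1000 bp and 130 of 1804 without peaks that overlap a control peak. There were 62 of 1808 without Hia5 200 U, 38 of 212 with 772 peaks and 1521 of 1866 with Spearman's rho. Calls also remained when 1 or the other Hia5 2 U replicate was left out. With the replicate block the 6 U minus 2 U difference was -9 (pairs -10 and -8) and the dose test called 0 of 4.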
